A study of Homo sapiens with 8 samples.

Results

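The genes described here encode the machinery that carries proteins into mitochondria: the translocases of the outer membrane (TOMM genes) and inner membrane (TIMM genes), the import motor, the disulfide relay of the intermembrane space, the sorting and assembly machinery and the matrix processing peptidase. They were chosen by symbol, as genes whose symbol starts with TOMM or TIMM together with PAM16, DNAJC19, GRPEL1, GRPEL2, CHCHD4, GFER, SAMM50, MTX1, MTX2, PMPCA, PMPCB and ROMO1, without pseudogenes and readthrough genes. This gave 38 of the 61806 genes in the count table, and 36 of them, among 14893 genes in all, had at least 10 counts in at least 4 libraries and were tested. mRNA was sequenced from N/TERT-1 cells, a wild-type line of human epidermal keratinocytes immortalized with telomerase, in 4 libraries treated with ethanol, the vehicle, and 4 exposed to O/A, the combination of oligomycin with antimycin A. Oligomycin blocks the mitochondrial ATP synthase and antimycin A blocks complex III, and together they depolarize mitochondria. The study describes exposure for 4 hours, with oligomycin at 10 μM and antimycin A at 4 μM, and the sample labels themselves give neither dose nor time. The 4 libraries of a condition come from independent experiments on this 1 line, so the spread between them covers experiments and not cell lines.

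Most mitochondrial proteins are made in the cytosol and enter through the TOM complex of the outer membrane. From there, proteins with a cleavable presequence pass through the TIM23 translocase, driven by the membrane potential and then by the import motor, in which the Hsp70 chaperone HSPA9 (mortalin) is held at the channel by TIMM44, stimulated by the J-domain pair DNAJC19 and PAM16, and reset by the nucleotide exchange factors GRPEL1 and GRPEL2. Carrier proteins go instead by the small TIM chaperones to the TIM22 translocase, barrel proteins go to the SAM complex, and small cysteine-rich proteins are trapped by the CHCHD4 and GFER relay. The presequence is removed in the matrix by the PMPCA and PMPCB peptidase.

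The mRNA response of this machinery to O/A was small for most genes and large for a pair of motor genes. GRPEL2 rose 2.55-fold and TIMM44 rose 1.73-fold, the highest values among the 36 genes, while TIMM21, PMPCA, TIMM22, TOMM40L and TOMM70 fell to between 0.660 and 0.793 of their ethanol levels. In edgeR's quasi-likelihood test, 9 of the 36 genes (25%) were called changed, by an adjusted p of 0.05 or less together with an absolute log2(FC) above 0.25. Over all genes tested the share was 34.7%, above that of the import genes. The 4 that rose (11.1%) compare with 15.8% of all genes tested, and the 5 that fell (13.9%) with 18.9%. The median log2(FC) of the 36 genes was -0.02, against -0.0004 over all genes tested, and their median absolute log2(FC) was 0.12, against 0.20. Every O/A library lay above every ethanol library for 6 of the genes and below for 10, in all 44.4% of them, against 47.6% of all genes tested. Without the fold threshold, 19 genes reached an adjusted p of 0.05 or less, of which 8 were higher and 11 lower in O/A. By the same criterion, 3868 of all 14893 genes tested were higher and 4131 lower.

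**Figure D1:**
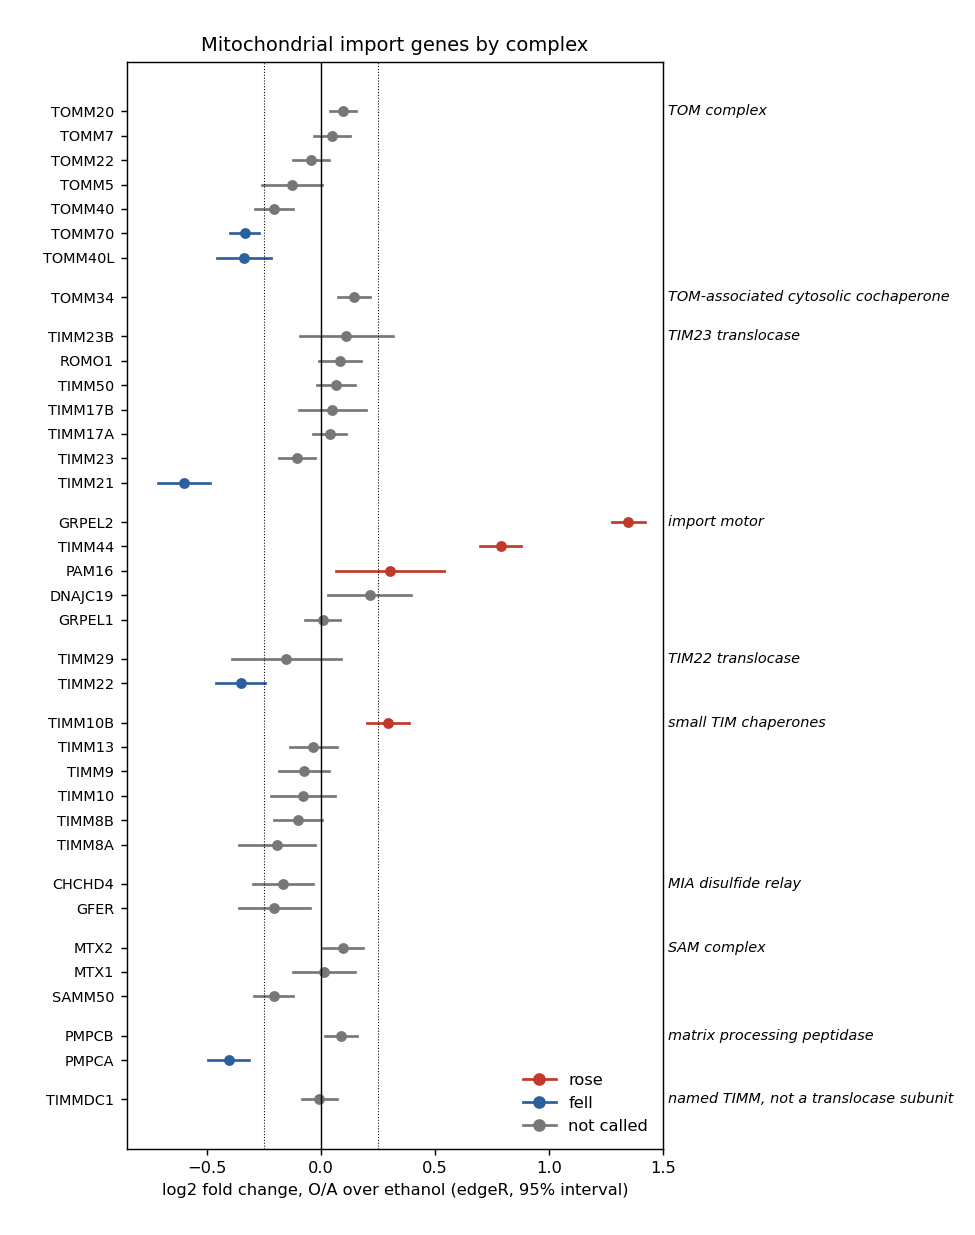
Log2 fold change of O/A over ethanol for the 36 genes tested (points, with 95% intervals from edgeR as lines), grouped by complex, with dotted lines at the fold threshold of 0.25 on either side. GRPEL2 and TIMM44 of the import motor stand to the right at 1.35 and 0.79, TIMM21 stands farthest to the left at -0.60, and most other genes lie between the dotted lines.

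Libraries held 17210404 to 20999927 counted reads in ethanol and 17689760 to 19263046 in O/A. The keratinocyte markers KRT5, KRT14, TP63, ITGA6 and ITGB4 were all expressed, with a summed level of 2707 to 2960 FPKM (fragments scaled to exon length and to the counted reads of the library) in ethanol and 2343 to 2491 in O/A. The markers did not move together. KRT5 fell (log2(FC) -0.30, edgeR adjusted p = 9.47e-15), and KRT14 (-0.09) and TP63 (-0.05) were not called. ITGA6 (0.14) and ITGB4 (0.15) stayed within the fold threshold, with every O/A library above every ethanol library. Fibroblast markers summed to at most 2.95 FPKM, and melanocyte, immune and endothelial markers to at most 0.88 in any library, with MLANA and TYR at 0. Their part in the values below was not tested. In a bulk sample, less RNA per cell cannot be told apart from fewer cells. Replicate libraries differed from each other by more than counting noise, so none was counted as a repeat of another. Levels are given below as FPKM or as CPM (counts scaled to a common library size after TMM normalization). FPKM may be compared between genes only as far as the authors' exonic size matches the length of the expressed transcripts, which was not tested. CPM may be compared only within a gene. Fold changes come from the fit of the scaled counts. They can differ slightly from the ratio of mean FPKM, because FPKM was divided by the unscaled library totals.

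GRPEL2 and TIMM44 changed most, in opposite direction to TOMM70, the most abundant of the genes that fell. The 250 bases before the RefSeq start of each of these 3 genes are shown so that the promoters of the genes with the largest rises and of the most abundant gene that fell can be read side by side. They are given 5′ to 3′ in the direction of the gene, on GRCh38.p14, and capitals mark CCGGAAGT, the site of ETS factors such as GABPA.
GRPEL2, chr5:149345249-149345498, plus strand: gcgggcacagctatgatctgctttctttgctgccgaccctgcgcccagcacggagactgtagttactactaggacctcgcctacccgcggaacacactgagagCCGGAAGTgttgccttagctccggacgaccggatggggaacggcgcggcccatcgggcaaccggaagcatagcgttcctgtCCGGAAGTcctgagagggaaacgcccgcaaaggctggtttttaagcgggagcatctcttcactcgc
TIMM44, chr19:7943667-7943916, minus strand: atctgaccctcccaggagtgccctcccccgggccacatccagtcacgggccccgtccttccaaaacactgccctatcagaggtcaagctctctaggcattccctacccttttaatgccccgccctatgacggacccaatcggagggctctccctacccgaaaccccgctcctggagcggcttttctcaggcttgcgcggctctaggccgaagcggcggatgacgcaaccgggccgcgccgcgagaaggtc
TOMM70, chr3:100401090-100401339, minus strand: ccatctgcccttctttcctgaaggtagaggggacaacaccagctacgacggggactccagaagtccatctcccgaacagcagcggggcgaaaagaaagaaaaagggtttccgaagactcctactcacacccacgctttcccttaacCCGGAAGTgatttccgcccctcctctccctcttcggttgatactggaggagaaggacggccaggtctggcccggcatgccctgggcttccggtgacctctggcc

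GRPEL2 holds the ETS letters 2 times, ending 140 and 59 bases before the RefSeq start, TOMM70 holds them once, and TIMM44 holds none in these bases. The authors' coordinates start GRPEL2 earlier, at 149345430, so the match nearer the RefSeq start lies within the gene span as counted. RefSeq promoter windows, from 250 bases before to 50 after the start, were matched for 33 of the 36 genes tested. No window was found for GRPEL1, TIMM8B and TOMM5. On either strand, CCGGAAGT occurred for 9 of the 33 genes (27.3%), against 4.14% of 35093 promoters and 7.49% of 15453 promoters of genes tested. Here and for the letters below, import genes were counted once if any window matched, while the backgrounds count each promoter window. The shares are therefore not in like units. The 9 genes are GRPEL2, TIMM10B, TOMM70, TOMM20, ROMO1, MTX2, TIMM10, TIMM29 and TIMMDC1, of which 2 rose, 1 fell and 6 were not called. TOMM70 was the only 1 of the 5 genes that fell to hold these letters, so its printed bases do not stand for the others. The core of the NRF1 site, GCATGCGC, whose reverse complement overlaps it, occurred for 5 genes (15.2%, against 3.05% of all promoters and 4.71% of promoters of genes tested). They are CHCHD4, PAM16, TIMM10B, TIMM9 and TOMM7, of which 2 rose and 3 were not called. The YY1 letters AAGATGGC occurred for 3 genes (9.09%, against 2.89% and 4.79%), PMPCA, TIMM50 and TOMM40L, of which 2 fell and 1 was not called. TGATGNAA, a form of the C/EBP-ATF response element, occurred for 2 genes (6.06%, against 3.62% and 2.01%), and other forms of the element were not searched. The 2 genes are TIMM22, which fell, and PMPCB, which was not called. Only 4 genes with a window rose, too few for the absence of these letters among them to be informative. These matches are a description of letters and not of bound factors.

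In the import motor 3 of 5 genes rose, against 15.8% of all genes tested, and none fell. The 3 include PAM16, whose libraries overlapped and whose call was lost under 7 alternatives. GRPEL2 (ENSG00000164284, chromosome 5 from 149345430 to 149354583, plus strand) encodes a mitochondrial GrpE-like nucleotide exchange factor. Its level was 10.2, 10.7, 10.4 and 10.3 FPKM in the ethanol libraries and 25.6, 25.8, 25.5 and 26.0 FPKM in the O/A libraries. The groups did not overlap, and the spread within each was 0.221 FPKM in ethanol and 0.223 in O/A (SD, n = 4). The log2(FC) was 1.35 (SE 0.036, 95% interval 1.28 to 1.42), with an adjusted p of 8.14e-35 in edgeR's quasi-likelihood test. The raw counts were 794 to 958 in ethanol and 1999 to 2173 in O/A, and GRPEL2-AS1, which lies across the gene on the other strand, held 15 reads in all 8 libraries together.

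GRPEL1 (ENSG00000109519), the paralog of GRPEL2 and the main exchange factor of the motor, did not pass the test. Its level was 17.9, 18.8, 19.2 and 17.6 FPKM in ethanol and 18.4, 17.1, 17.99 and 18.2 FPKM in O/A, so the libraries overlapped. The log2(FC) was 0.01 (SE 0.038, 95% interval -0.07 to 0.09, edgeR adjusted p = 0.866), and its sign turned under other scalings. The order of the paralogs was thus reversed, with GRPEL1 above GRPEL2 per length in every ethanol library and below it in every O/A library. On the CPM scale the log2 ratio of GRPEL1 to GRPEL2 was 0.69 ± 0.048 in ethanol and -0.65 ± 0.048 in O/A (SD, n = 4), a change of -1.34 (95% interval of the difference of the fitted fold changes -1.44 to -1.24). An exact permutation test of this ratio, two-sided, gave p = 0.0286, the smallest that 4 libraries against 4 can give, and 0.143 after adjustment over 10 pairs. The reads of both genes together were 118.9 CPM in ethanol and 189.5 CPM in O/A.

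TIMM44 (ENSG00000104980, chromosome 19 from 7926718 to 7943667, minus strand), the scaffold that tethers HSPA9 to the channel, rose as well. Its level was 8.25, 8.04, 7.97 and 7.65 FPKM in ethanol and 13.6, 12.8, 14.1 and 12.96 FPKM in O/A. Every O/A library was above every ethanol library, and the log2(FC) was 0.79 (SE 0.045, edgeR adjusted p = 3.38e-21). HSPA9, the chaperone that TIMM44 binds, lies outside the symbol rule and had 47.0 ± 0.706 FPKM in ethanol and 64.6 ± 1.13 in O/A (SD, n = 4). It rose by a log2(FC) of 0.50 (SE 0.025, edgeR adjusted p = 1.70e-23), again with no overlap between the groups.

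The J-domain partners were the least abundant of the motor genes and the least certain. PAM16 (ENSG00000217930) had 5.55, 5.10, 4.5 and 6.44 CPM in ethanol and 5.81, 6.68, 6.93 and 7.41 CPM in O/A, or 79 to 137 counts per library. Its libraries overlapped, because ethanol replicate 4 lay above O/A replicate 1. The log2(FC) was 0.30 (SE 0.117, edgeR adjusted p = 0.0257), and the exact permutation test gave p = 0.0571. The call was lost without ethanol replicate 2 (adjusted p = 0.0602), ethanol replicate 3 (0.103), O/A replicate 3 (0.0539) or O/A replicate 4 (0.0901), in DESeq2 (0.0507) and on log2(FPKM + 0.1) and log2(FPKM + 1) (0.0542 and 0.0555). A gene on the same strand, ENSG00000280063, covers 1955 bases of the PAM16 span, with 541 reads against 895 for PAM16 and a log2(FC) of 0.41, and its reads cannot be fully told apart from those of PAM16. GLIS2 on the other strand covers 8049 bases of the span, with 1039 reads and a log2(FC) of -0.35.

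DNAJC19 (ENSG00000205981), which pairs with PAM16, had 16.4, 18.6, 20.7 and 19.0 CPM in ethanol and 22.5, 24.8, 17.7 and 21.5 CPM in O/A. These overlapped, and the log2(FC) of 0.21 (SE 0.087, edgeR adjusted p = 0.0447) stayed within the fold threshold. It passed the threshold at 0.27 without ethanol replicate 3, at 0.31 without O/A replicate 3 and at 0.26 under quantile normalization. The 9 pseudogenes of DNAJC19 held 97 reads, 3.27% of those on the gene. Among these, DNAJC19P5 had 4, 6, 4 and 8 counts in ethanol and 11, 17, 17 and 11 in O/A, so reads of the gene and its copies may have been divided between them. With the copies added, the log2(FC) of DNAJC19 was 0.24. The log2 ratio of PAM16 to DNAJC19 changed by 0.11 (interval -0.20 to 0.38, exact permutation p = 0.657, adjusted p = 0.821) and by -0.0237 without ethanol replicate 3, so a difference between the partners was not detectable with 4 libraries of each condition.

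**Figure D2:**
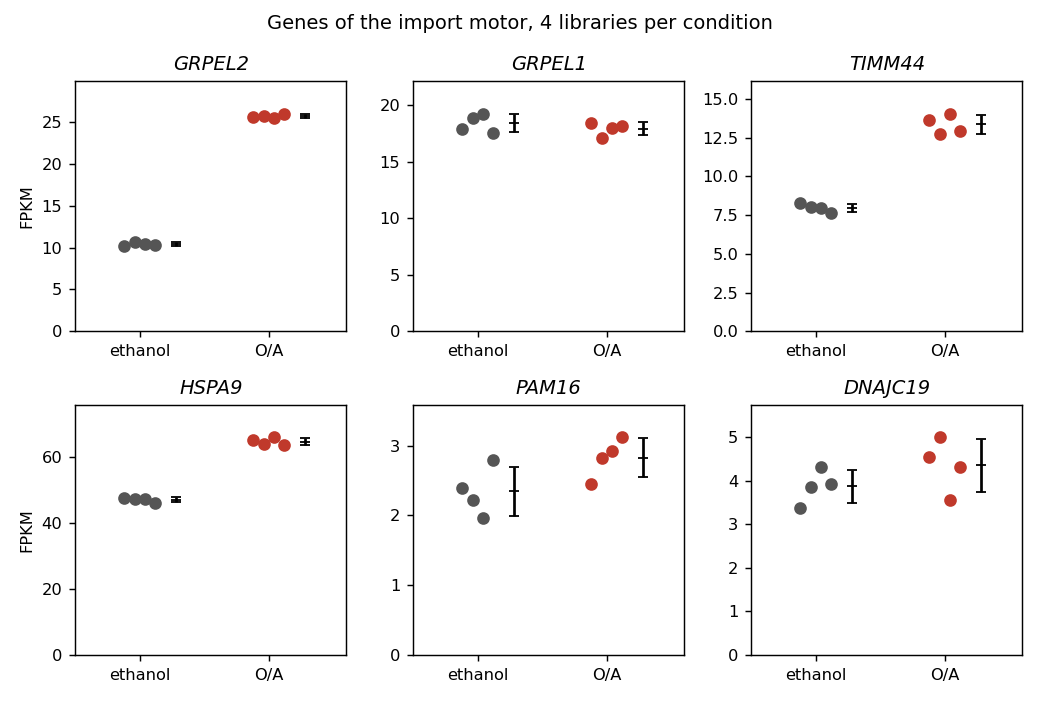
FPKM of the import motor genes and their chaperone HSPA9 in the 4 ethanol (grey) and 4 O/A (red) libraries, each panel with its own axis from 0, and with the mean and SD as a bar beside the points. GRPEL2, TIMM44 and HSPA9 separate without overlap, with O/A at 25.5 to 26.0, 12.8 to 14.1 and 63.5 to 65.9 FPKM, while GRPEL1, PAM16 and DNAJC19 overlap.

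In the TOM complex 2 of 7 genes tested fell (28.6%, against 18.9% of all genes tested) and none rose. TOMM70 (ENSG00000154174, chromosome 3 from 100363431 to 100401089, minus strand), the receptor for carrier and other hydrophobic precursors, had 29.2, 29.9, 29.9 and 28.2 FPKM in ethanol and 23.9, 22.3, 22.5 and 21.3 FPKM in O/A. All O/A libraries were lower, and the log2(FC) was -0.33 (SE 0.033, edgeR adjusted p = 1.07e-12). TOMM20 (ENSG00000173726), the receptor for presequences and the most abundant of the 36 genes, was 65.0 ± 1.24 FPKM in ethanol and 67.4 ± 2.24 in O/A. Its log2(FC) of 0.10 (SE 0.028, edgeR adjusted p = 0.00264) was within the fold threshold, although the O/A libraries were all above the ethanol libraries on the CPM scale. This small difference depended on scaling. It was 0.104 with median-ratio scaling (edgeR adjusted p = 0.00141) and in DESeq2 (adjusted p = 0.00315). In limma it was 0.024 under quantile normalization (adjusted p = 0.485) and 0.0508 on log2(FPKM + 0.1) (adjusted p = 0.151). TOMM22, the central receptor, had 34.9 ± 1.82 FPKM in ethanol and 32.8 ± 1.04 in O/A (log2(FC) -0.04, edgeR adjusted p = 0.372).

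TOMM40 (ENSG00000130204), the channel itself, had 75.5, 70.6, 69.8 and 69.8 CPM in ethanol and 66.0, 59.2, 63.6 and 59.2 CPM in O/A. Its O/A libraries were all lower, and the log2(FC) of -0.20 (SE 0.041, edgeR adjusted p = 3.00e-05) was within the fold threshold. Its paralog TOMM40L (ENSG00000158882) had 26.4, 27.1, 27.8 and 26.8 CPM in ethanol and 20.6, 23.3, 20.5 and 21.3 CPM in O/A, and fell by 0.34 on the log2 scale (SE 0.058, edgeR adjusted p = 2.47e-06). TOMM40L was the less abundant paralog, at 8.34 FPKM in ethanol against 20.1 for TOMM40. The log2 ratio of TOMM40 to TOMM40L changed by 0.13 (interval -0.01 to 0.27, exact permutation p = 0.229, adjusted p = 0.381), so the paralogs were not shown to respond differently. The small subunits TOMM5 and TOMM7 had log2(FC) values of -0.13 and 0.05 (edgeR adjusted p = 0.0997 and 0.297).

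TOMM6 and TOMM20L were not tested. TOMM6 was listed at 0 in every library. Its 2237 bases lie wholly within ENSG00000124593 on the same strand, a gene with 423 reads, so its level cannot be read from this table. TOMM20L had 2 reads in all. TOMM34, a cytosolic cochaperone associated with TOM, had 46.8 ± 1.72 FPKM in ethanol and 50.2 ± 1.54 in O/A, with a log2(FC) of 0.15 (SE 0.035, edgeR adjusted p = 3.91e-04) that was within the fold threshold. Its span is overlapped for 16906 of 18268 bases by PABPC1L on the other strand, which held 9049 reads against 14114 and had a log2(FC) of 0.88, and whether the counting used strand is not given in the sources used here.

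Of the 7 genes of the TIM23 translocase, 1 fell (14.3%, against 18.9% of all genes tested) and none rose. TIMM21 (ENSG00000075336, chromosome 18 from 74148523 to 74160531, plus strand), which contacts the TOM complex from the inner membrane and also hands subunits to respiratory chain assembly, had 6.29, 6.62, 6.85 and 6.07 FPKM in ethanol. In O/A it had 4.08, 4.44, 3.86 and 4.12 FPKM. All O/A libraries were lower, and its log2(FC) of -0.60 (SE 0.057, edgeR adjusted p = 4.68e-13) was the lowest of the 36 genes. TIMM23 (ENSG00000265354), the channel, had 68.1, 69.7, 71.0 and 71.3 CPM in ethanol and 66.7, 66.6, 61.0 and 66.2 CPM in O/A. Its O/A libraries were all lower by a small margin, and the log2(FC) of -0.11 (SE 0.039, edgeR adjusted p = 0.0196) was within the fold threshold. Without O/A replicate 3, the lowest library, it was -0.0688 (edgeR adjusted p = 0.160).

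TIMM23B, a near-identical copy of TIMM23, had 8.89, 7.18, 7.69 and 9.78 CPM in ethanol and 9.03, 10.5, 8.42 and 8.51 CPM in O/A (log2(FC) 0.11, edgeR adjusted p = 0.359). Reads of the copies may be divided between them, and a readthrough gene, TIMM23B-AGAP6, held reads equal to 20.5% of those on TIMM23B. With the counts of TIMM23 and TIMM23B added, an alternative chosen after seeing the data, the log2(FC) was -0.08 (edgeR adjusted p = 0.0700). TIMM17A (ENSG00000134375), which shapes the channel with TIMM23, had 83.4, 91.2, 88.1 and 83.3 CPM in ethanol and 89.3, 85.3, 91.3 and 89.3 CPM in O/A (log2(FC) 0.04, edgeR adjusted p = 0.381). TIMM17B, the alternative subunit, had 15.5, 15.4, 14.0 and 15.7 CPM in ethanol and 16.7, 14.1, 16.3 and 15.7 CPM in O/A (log2(FC) 0.05, edgeR adjusted p = 0.594). Groups overlapped for both subunits. The log2 ratio of TIMM17A to TIMM17B changed by -0.01 (interval -0.17 to 0.15, exact permutation p = 0.914, adjusted p = 0.943). All bases of TIMM17B are overlapped by PQBP1 on the other strand, with 8876 reads against 2276. PARG, also on the other strand, overlaps 28155 of the 32802 bases of TIMM23B, with 5868 reads against 1295.

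The log2 ratio of TIMM23 to TIMM17A changed by -0.14 (interval -0.25 to -0.04, exact permutation p = 0.0571, adjusted p = 0.143). TIMM50, the receptor of the translocase, had 7.88 ± 0.327 FPKM in ethanol and 7.998 ± 0.302 in O/A (log2(FC) 0.07, edgeR adjusted p = 0.175). ROMO1, a small subunit of TIM23 that is also linked to reactive oxygen species, had 56.4 ± 2.01 and 57.9 ± 0.85 FPKM (log2(FC) 0.08, edgeR adjusted p = 0.120). TIMMDC1 carries the TIMM name but is an assembly factor of complex I, and its log2(FC) was -0.01 (edgeR adjusted p = 0.911).

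On the carrier route, TIMM22 fell and TIMM10B rose. TIMM22 (ENSG00000177370, chromosome 17 from 997129 to 1003671), the channel of the TIM22 translocase, had 32.7, 34.7, 36.4 and 33.4 CPM in ethanol and 26.6, 28.4, 26.5 and 25.8 CPM in O/A. All O/A libraries were lower, with a log2(FC) of -0.35 (SE 0.053, edgeR adjusted p = 1.52e-07). Its partner subunit TIMM29 had a log2(FC) of -0.15 (SE 0.118, edgeR adjusted p = 0.294), at 3.90 ± 0.659 FPKM in ethanol and 3.38 ± 0.451 in O/A. TIMM10B (ENSG00000132286, chromosome 11 from 6481501 to 6484681), the small TIM protein that docks the chaperones on TIM22, had 36.0, 38.1, 38.8 and 36.5 CPM in ethanol and 45.8, 46.9, 45.6 and 44.5 CPM in O/A. All O/A libraries were higher, with a log2(FC) of 0.29 (SE 0.046, edgeR adjusted p = 2.91e-07). On log2(FPKM + 0.1) its value was 0.245, within the fold threshold.

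The other small TIM genes did not pass both thresholds. TIMM9 had 26.4, 25.9, 26.2 and 27.8 CPM in ethanol and 25.5, 25.4, 24.8 and 25.5 CPM in O/A (log2(FC) -0.07, edgeR adjusted p = 0.270), without overlap but with a gap of less than 1 CPM. TIMM10, with which it forms a hexamer, had 17.5, 20.1, 17.9 and 17.3 CPM in ethanol and 18.4, 17.7, 15.7 and 17.1 CPM in O/A (log2(FC) -0.08, edgeR adjusted p = 0.351). Their log2 ratio changed by 0.01 (interval -0.17 to 0.18, exact permutation p = 0.943, adjusted p = 0.943). The partners that form the other hexamer are TIMM8A, mutated in the deafness-dystonia syndrome, and TIMM13. TIMM8A had 12.8, 14.4, 11.5 and 12.5 CPM in ethanol and 11.6, 11.6, 10.7 and 10.9 CPM in O/A (log2(FC) -0.19, SE 0.083, edgeR adjusted p = 0.0489, within the fold threshold). TIMM13 had 37.8, 40.4, 35.4 and 34.0 CPM in ethanol and 36.2, 35.1, 36.1 and 36.7 CPM in O/A (log2(FC) -0.03, edgeR adjusted p = 0.626). The ratio of TIMM8A to TIMM13 changed by -0.15 on the log2 scale (interval -0.35 to 0.03, exact permutation p = 0.0571, adjusted p = 0.143).

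TIMM8B, the paralog of TIMM8A and the more abundant at 26.0 FPKM in ethanol against 4.21, had 30.3, 30.2, 28.8 and 30.1 CPM in ethanol and 28.9, 27.5, 27.1 and 27.9 CPM in O/A. These overlapped only at ethanol replicate 3 and O/A replicate 1 (log2(FC) -0.10, edgeR adjusted p = 0.104). The ratio of the paralogs changed by -0.09 (interval -0.28 to 0.10, exact permutation p = 0.229, adjusted p = 0.381).

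In the disulfide relay neither gene passed the fold threshold. CHCHD4, the oxidoreductase, had 12.96 ± 0.972 FPKM in ethanol and 11.2 ± 0.812 in O/A (log2(FC) -0.16, SE 0.065, edgeR adjusted p = 0.0306). GFER, the sulfhydryl oxidase that reoxidizes it, had 5.69 ± 0.435 and 4.78 ± 0.345 FPKM (log2(FC) -0.20, SE 0.077, edgeR adjusted p = 0.0230), and its O/A libraries were all lower on the CPM scale. In the SAM complex, SAMM50, the barrel assembly protein, had 9.09 ± 0.376 FPKM in ethanol and 7.63 ± 0.296 in O/A, with all O/A libraries lower and a log2(FC) of -0.21 (SE 0.043, edgeR adjusted p = 4.75e-05) that was within the fold threshold.

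The metaxins, which face the cytosol in this complex, were MTX1 with 19.6, 20.2, 19.3 and 17.0 CPM in ethanol and 17.5, 20.6, 18.4 and 20.1 CPM in O/A (log2(FC) 0.01, edgeR adjusted p = 0.878), and MTX2. MTX2 had 47.1, 45.5, 43.8 and 45.3 CPM in ethanol and 50.2, 47.8, 48.4 and 48.2 CPM in O/A (log2(FC) 0.10, edgeR adjusted p = 0.0524), all O/A libraries higher. Their log2 ratio changed by -0.09 (interval -0.24 to 0.08, exact permutation p = 0.314, adjusted p = 0.449).

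Of the 2 subunits of the matrix processing peptidase, PMPCA fell and PMPCB was not called. PMPCA (ENSG00000165688, chromosome 9 from 136410641 to 136423761, plus strand), the substrate-binding alpha subunit, had 65.7, 66.6, 60.9 and 69.2 CPM in ethanol and 53.4, 48.5, 46.7 and 50.2 CPM in O/A. It fell without overlap, by 0.40 on the log2 scale (SE 0.044, edgeR adjusted p = 4.42e-11). PMPCB (ENSG00000105819), the catalytic beta subunit, had 93.0, 91.0, 91.8 and 86.2 CPM in ethanol and 98.1, 98.9, 91.0 and 97.1 CPM in O/A, which overlapped (log2(FC) 0.09, SE 0.035, edgeR adjusted p = 0.0295, within the fold threshold). DNAJC2 on the other strand overlaps 17223 of the 32077 bases of PMPCB, with 9490 reads against 13743. The log2 ratio of PMPCA to PMPCB was -0.46 ± 0.114 in ethanol and -0.95 ± 0.062 in O/A (SD, n = 4). This change of -0.49 (interval -0.60 to -0.38) gave the smallest exact permutation p of 0.0286, and 0.143 after adjustment over the 10 pairs.

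**Figure D3:**
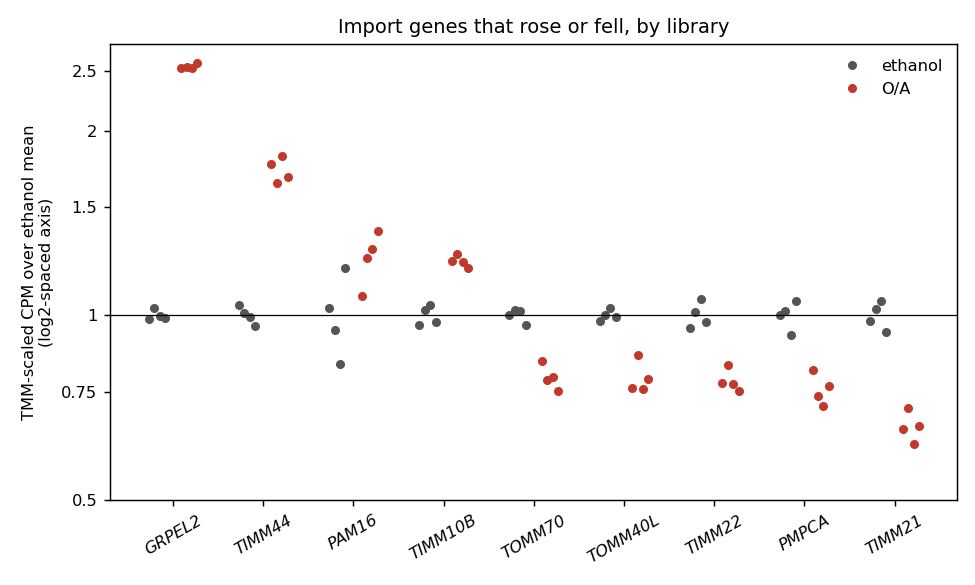
TMM-scaled CPM of each library divided by the ethanol mean, on a log2-spaced axis, for the 9 genes that rose or fell, with ethanol in grey and O/A in red. O/A libraries stand apart from ethanol for every gene shown except PAM16, whose log2 fold change of 0.30 comes with overlapping libraries.

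Across the 10 pairs of paralogs and partner subunits compared, the libraries did not overlap for GRPEL1/GRPEL2 and PMPCA/PMPCB. None of the 10 reached an adjusted p of 0.05 in the exact permutation test, while 2 had an unadjusted p under 0.05. With 4 libraries against 4, at least 6 of the 10 pairs would need the smallest possible p for any to reach it. The intervals come from the fitted fold changes and treat the errors of the paired genes as independent. Intervals left out 0 for GRPEL1/GRPEL2, PMPCA/PMPCB and TIMM23/TIMM17A.

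**Figure D4:**
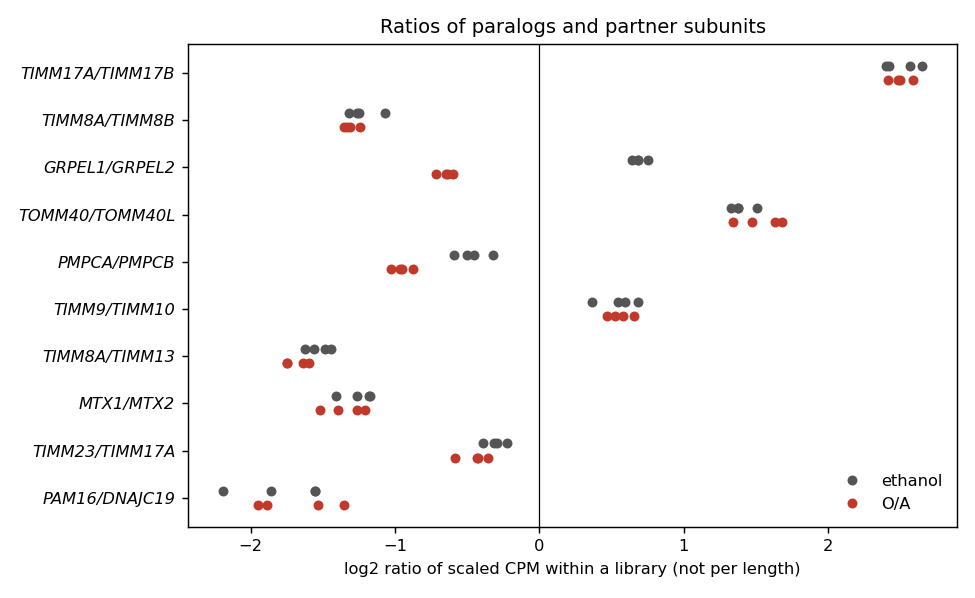
Log2 ratio of the CPM of the genes in each of 10 pairs, within each ethanol (grey) and O/A (red) library, on the x axis. O/A lies wholly to the left of ethanol for GRPEL1/GRPEL2, at a mean of -0.65 against 0.69, and for PMPCA/PMPCB, at -0.95 against -0.46, and the other 8 pairs overlap.

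Levels per length were ordered much alike in both conditions outside the genes named. TOMM20, TIMM23 and ROMO1 were the highest 3 in ethanol, at 65.0, 59.7 and 56.4 FPKM, and TIMM23B and PAM16 the lowest at 2.80 and 2.35. GRPEL2 moved from place 21 of 36 in ethanol to place 8 in O/A, and TIMM44 from place 25 to place 20. TOMM70 moved from place 7 to place 12 and TIMM21 from place 27 to place 32. Reads on all 36 genes summed to 1803 ± 25.4 CPM in ethanol and 1849 ± 26.1 in O/A (SD, n = 4), a difference of 46.3 CPM. This difference depends on the TMM scaling. Without it, import genes held 0.1788 to 0.1855% of counted reads in ethanol and 0.1793 to 0.1850% in O/A, which overlapped. GRPEL2 and TIMM44 alone differed by 96.7 CPM, from 81.9 to 178.6. The other 34 genes summed to 1721 ± 24.3 CPM in ethanol and 1671 ± 26.9 in O/A, and these sums overlapped.

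**Figure D5:**
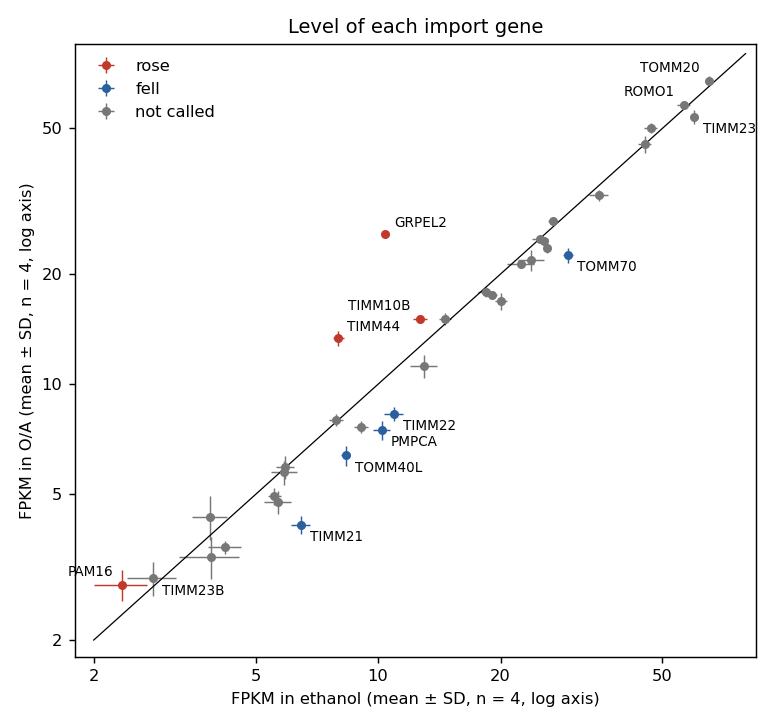
Mean FPKM in O/A against mean FPKM in ethanol for the 36 genes tested, both on log axes, with SD bars (n = 4) and the line of equal level. GRPEL2 stands farthest above the line, at 25.7 against 10.4 FPKM, TIMM44 follows at 13.4 against 7.98, and TIMM21 and TOMM70 lie below it.

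Other genes of mitochondrial protein handling were listed by function. Of 16 further import genes, 3 rose and 1 fell (25%, against 34.7% of all genes tested), with a median log2(FC) of 0.05. Beside HSPA9, those that rose were ATAD1, the AAA ATPase that extracts mislocalized tail-anchored proteins from the outer membrane, from 16.6 ± 0.198 to 23.2 ± 0.383 FPKM (log2(FC) 0.53, SE 0.031, edgeR adjusted p = 1.89e-20), and MTX3, another metaxin. MTX3 was 7.14 ± 0.519 FPKM in ethanol and 10.02 ± 0.226 in O/A (log2(FC) 0.53, SE 0.042, edgeR adjusted p = 2.92e-15), while MTX1 and MTX2 were not called. XPNPEP3, an aminopeptidase that trims a residue after the processing peptidase, fell by 0.30 on the log2 scale (SE 0.065, edgeR adjusted p = 8.55e-05). MIPEP, the peptidase that removes a further stretch, had a log2(FC) of -0.19 (edgeR adjusted p = 0.00727), and AGK, a TIM22 subunit, had -0.07 (edgeR adjusted p = 0.142).

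In the MICOS complex, which holds the cristae junctions and contacts TOM and SAM, 1 of 7 genes rose (14.3%, against 15.8% of all genes tested) and none fell. This was APOOL, from 4.65 ± 0.218 to 5.65 ± 0.373 FPKM (log2(FC) 0.33, SE 0.053, edgeR adjusted p = 7.56e-07), and the core subunit IMMT had a log2(FC) of -0.04 (edgeR adjusted p = 0.346). Among 19 genes for twin CX9C proteins, the class of small proteins folded by the CHCHD4 relay, 2 rose (10.5%, against 15.8% of all genes tested) and none fell, with a median log2(FC) of 0.07. COX19, a copper-handling factor of cytochrome c oxidase assembly, had 3.59, 3.42, 3.43 and 3.41 FPKM in ethanol and 6.39, 6.47, 6.83 and 6.31 FPKM in O/A (log2(FC) 0.95, SE 0.051, edgeR adjusted p = 3.41e-22). The other was CMC2 at 0.25 (SE 0.067, edgeR adjusted p = 0.00115), just past the fold threshold, which dropped inside it without ethanol replicate 1 (0.22), ethanol replicate 3 (0.24), O/A replicate 1 (0.249) or O/A replicate 4 (0.21).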

How the data were processed

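mRNA was measured in 8 libraries, and groups and replicate numbers were taken from the sample labels. Per the authors' notes, HISAT2 2.0.1 aligned the paired-end reads to the GRCh38.p13 genome and HTSeq 0.6.1 counted them per gene. The deposited counts are not normalized, and the strand setting is not given in the sources used here. The deposited FPKM values equal the count divided by exonic size and library total. A table of the authors' own DESeq2 comparison, with mean levels, fold changes and p-values, was not used. Symbols were missing for 20417 genes, and 20380 were filled from GENCODE. Coordinates are those of the authors' table.

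Counts were analysed in R 4.3.3 with edgeR 4.0.16 (TMM scaling, robust quasi-likelihood test), and p-values were adjusted by Benjamini-Hochberg over the 14893 genes tested. Standard errors and intervals are from the same fit. The fold and p thresholds are those of the study. The members and lists were chosen with earlier results of these data known. All members tested are named, those that were called or belong to a pair with values per library, and of each other list up to 3 genes per direction. Pairs were compared by an exact permutation test of the log2 ratio of CPM with a prior count of 0.5. The edgeR test of single genes and its DESeq2 and limma alternatives were tried on simulated counts, and the permutation test was not.

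Alternatives were DESeq2 1.42.0, limma 3.58.1 on log2(FPKM + 0.1) and log2(FPKM + 1), no filter, median-ratio scaling, quantile normalization, copies added, a replicate block, leaving out each library, and other fold thresholds. Deviations of libraries with the same number correlated at -0.02 to 0.07, and the libraries were treated as unpaired. These values cannot exclude that libraries with the same number share an experiment, because libraries with different numbers were not compared in this way. Depth limits the precision of low genes such as PAM16, and the p-values measure the spread between libraries of 1 cell line.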

Additional observations from a re-analysis of the deposited data

Results flagged for a closer look

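In 8 of 86 groups of 4 libraries examined (43 genes, both conditions), 1 library stood apart from the other 3 by Dixon's gap criterion at the 95% level, where chance alone gives about 4.3. All values are CPM. TOMM22 was 80.4 in ethanol replicate 3 and 72.8 to 73.5 in the other ethanol libraries, and 69.4 in O/A replicate 4 against 73.6 to 74.1. TOMM40 was 75.5 in ethanol replicate 1 against 69.8 to 70.6. TOMM34 was 95.8 in O/A replicate 2 against 102 to 103. TIMM23 was 61.0 in O/A replicate 3 against 66.2 to 66.7, and TIMM9 was 24.8 in that library against 25.4 to 25.5. TIMM8B was 28.8 in ethanol replicate 3 against 30.1 to 30.3. COX19 was 23.9 in ethanol replicate 1 against 22.6 to 22.7. With each such library left out, none of these genes gained or lost a call, but TIMM23, which was within the fold threshold throughout, went from a log2(FC) of -0.106 (edgeR adjusted p = 0.0196) to -0.0688 (edgeR adjusted p = 0.160) without O/A replicate 3.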

How the results depend on the processing

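The import genes called numbered 9 in the analysis reported, 8 to 9 with each library left out, 8 in DESeq2, 10 under quantile normalization, 7 on either FPKM scale, and 9 with no filter, median-ratio scaling or copies added. With the replicate block the count was 9, the same 9 genes, and no call of the genes and lists named changed. The fold threshold moved the counts most. Without it, 19 of 36 import genes, 9 of 16 other import genes and 5 of 19 twin CX9C genes were called. Over all 14893 genes tested, 3868 were then called higher and 4131 lower. Above an absolute log2(FC) of 0.5 the counts were 3 import genes, 0 MICOS genes and 1 twin CX9C gene. The share of all genes tested that passed 0.5 is not given here. The MICOS count was 0 on log2(FPKM + 1). The twin CX9C count was 1 on either FPKM scale and with no filter, and 1 to 2 with each library left out.

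Signs turned for 5 genes and 3 ratios, none of them called. TIMMDC1 was 0.00137 under median-ratio scaling, 0.00136 in DESeq2 and -0.00894 to 0.0170 with each library left out. GRPEL1 was -0.0312 under quantile normalization, -0.0371 on log2(FPKM + 0.1), -0.0354 on log2(FPKM + 1) and -0.0067 to 0.0420 with each library left out. TIMM17A was -0.00710 and -0.00688, and MTX1 -0.0344 and -0.0298, on those FPKM scales. MTX1 ranged from -0.0333 to 0.0601 and TIMM13 from -0.0662 to 0.0186 with each library left out. The changes of 3 log2 ratios also turned, with PAM16/DNAJC19 from -0.0237 to 0.201, TIMM9/TIMM10 from -0.0520 to 0.0552 and TIMM17A/TIMM17B from -0.0502 to 0.0348. TIMM10B, XPNPEP3 and APOOL dropped within the fold threshold on log2(FPKM + 1), at 0.230, -0.235 and 0.234. The cause was not tested. Of the single-gene and ratio values, 765 kept direction and call, 18 lost and 3 gained a call, and 24 changed sign.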
